A study of Mus musculus with 6 samples.

Results

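The TRIM genes encode tripartite motif proteins, most of which are ubiquitin ligases. Members were taken as all rows of the deposited gene table whose symbol is Trim followed by digits and at most 1 lower-case letter, which gave 68 of 55331 genes. Polyadenylated RNA came from whole testes of mice aged 35 days, and the labels give the strain as mixed. The 3 PTBP1_KO libraries are from Ptbp1fl/fl; Amh-Cre+/- mice, and the 3 WT libraries from Ptbp1fl/fl mice, so both groups carry floxed Ptbp1 and differ in the Cre transgene. Amh-Cre is driven by a Sertoli cell promoter, while whole testis consists largely of germ cells, so a difference confined to Sertoli cells is diluted here. Mice with Amh-Cre and unfloxed Ptbp1 are not among the groups, and effects of the deletion and of the transgene cannot be told apart. Whether the 3 libraries of a group are 3 animals is not stated in the labels. The deposited p-values therefore speak only for these libraries, and the spread between them may be technical. The table gives 1 FPKM (a fragment level scaled to transcript length and library size) for each group and no value per library, and FPKM values are therefore the authors' group values, without SD.

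A tripartite motif protein has a RING domain, 1 or more B-boxes and a coiled coil, followed by a C-terminal part that selects its partners. The RING domain brings a loaded ubiquitin-conjugating enzyme to the target. Several members with a C-terminal SPRY domain bind viral proteins or act in antiviral signalling and are induced by interferon, those with a PHD finger and bromodomain act on chromatin, and several others are known for their expression in germ cells. PTBP1 binds RNA and regulates splicing, and the comparison of PTBP1_KO with WT asks which testicular transcripts depend on it in Sertoli cells. Levels of whole genes do not show exon use.

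No TRIM gene passed Cuffdiff's threshold of q under 0.05 (an adjusted p) in the authors' deposited table. Of the 68 members, 50 were tested, with 0 called higher and 0 called lower in PTBP1_KO, beside 256 of all 22048 tested genes (1.16%), of which 0.458% were higher and 0.703% lower. Adjusted only over genes of at least 1 FPKM, again 0 members passed, against 1.61% of those genes. An unadjusted p under 0.05 was reached by 4 of the 50 members (8.0%), against 8.98% of all tested genes, and all 4 had the higher FPKM in PTBP1_KO; over all tested genes 4.38% did so in that direction and 4.59% in the other. The 4 were Trim42, Trim80, Trim8 and Trim12a. With a normal p computed from the deposited test statistic, 0 of the 50 had an adjusted p under 0.05, against 0.0862% of all tested genes. An unadjusted normal p under 0.05 was reached by 0 of the 50. The share over all tested genes was not counted for that p, which is stricter than the deposited one, so this 0 says little. The FPKM was higher in PTBP1_KO for 33 of the 50 tested members and lower for 17, while 50.9% of all tested genes had the higher value in PTBP1_KO. The median log2 fold change of PTBP1_KO over WT was 0.06 over the 50 tested members and 0.01 over all tested genes, and single members ranged from -0.32 to 0.55. A log2 fold change within 0.25 of 0 was found for 38 of the 50 (76%), against 69% of all tested genes. Since p-values above the threshold do not show equality, the values of the members are given below as levels.

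**Figure D1:**
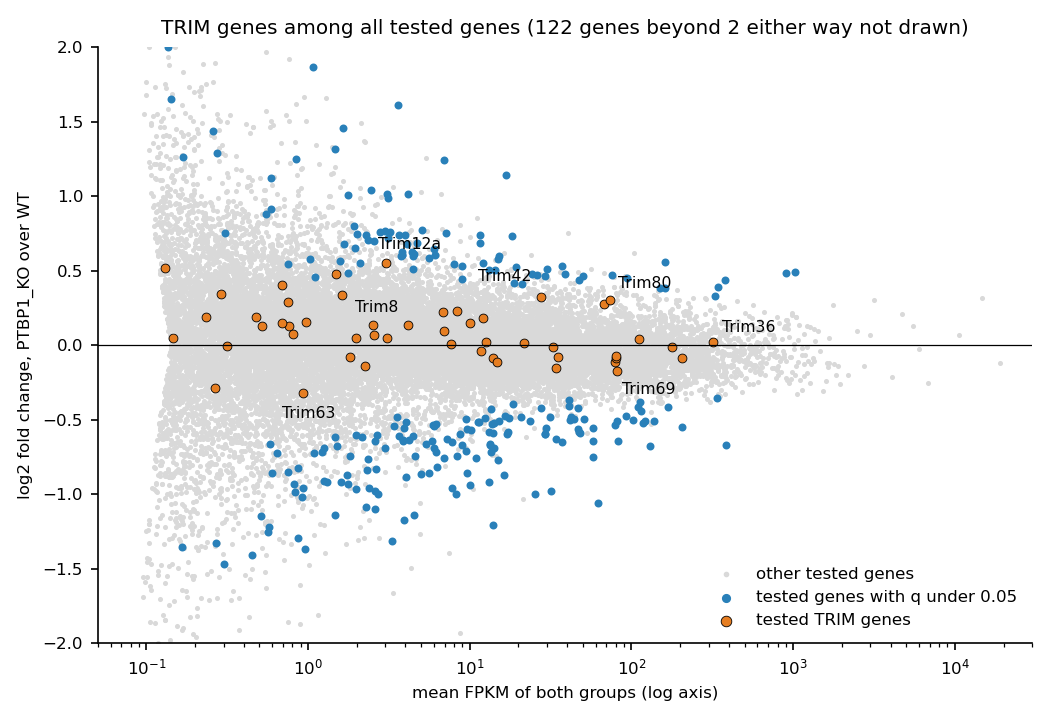
Mean FPKM of both groups (log axis) against the log2 fold change of PTBP1_KO over WT, with 1 point for each tested gene; TRIM genes are orange, genes with q under 0.05 blue and the rest grey. The 50 TRIM genes lie between -0.32 and 0.55, and 122 genes beyond 2 in either direction are not drawn.

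The depth behind these values could be read from the smallest FPKM values, which moved in steps of whole fragments. At 1 FPKM, each kilobase of effective length stood for about 204 fragments over the PTBP1_KO libraries and 226 over the WT libraries. For 1 kb, 3 fragments corresponded to 0.0154 FPKM in PTBP1_KO and 0.0151 FPKM in WT. These figures cover counting error only. Ptbp1 itself stood at 46.66 FPKM in PTBP1_KO and 49.97 FPKM in WT (q = 0.999 in the authors' deposited table), a whole-gene value in a tissue of many cell types that does not check the labels. Markers of the testis were present in both groups, with the spermatid gene Tnp1 at 18244 FPKM in PTBP1_KO and 19773 FPKM in WT. The Sertoli cell gene Clu rose to 1199 FPKM in PTBP1_KO, against 854 FPKM in WT (log2 fold change 0.49, q = 0.00848 in the authors' deposited table). All 10 Sertoli markers had the higher FPKM in PTBP1_KO, 1 of them called, with a median log2 fold change of 0.28 and a summed level of 1364 FPKM in PTBP1_KO and 994.6 FPKM in WT. Both sums, and the difference between them, were mostly Clu. None of the 10 was at 0, and their part in the 33 of 50 TRIM genes with higher FPKM was not tested. In such bulk samples fewer cells of a type and less RNA per cell cannot be told apart.

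The interferon-stimulated response element is the DNA motif through which interferon signalling switches on many antiviral genes, several TRIM genes among them, and its letters were sought in promoter windows from RefSeq (GRCm38.p6), 250 bases before to 50 after each gene start. The letters searched were GAAA, any 2 bases and GAAA, on both strands, where overlapping matches count once per gene. Of the 53 members with a window, 9 held the letters (17%), namely Trim2, Trim5, Trim12a, Trim12c, Trim21, Trim26, Trim30a, Trim30d and Trim34a, against 3.99% of the 27025 genes with a window. Of 20 genes of the antiviral list with a window, 6 held it. Stretches of 30 bases are shown for the members on chromosome 7, because close relatives carry the same letters at very different levels. The motif is in capitals. Trim21 and Trim30a each hold another match that is not shown.
Trim5, chr7:104288136-104288165, plus strand: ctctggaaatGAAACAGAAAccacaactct
Trim12a, chr7:104315466-104315495, plus strand: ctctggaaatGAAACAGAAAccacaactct
Trim12c, chr7:104353359-104353388, plus strand: agctggaaatGAAACAGAAAccacaactct
Trim30a, chr7:104465210-104465239, plus strand: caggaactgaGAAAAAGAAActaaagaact
Trim30d, chr7:104507871-104507900, plus strand: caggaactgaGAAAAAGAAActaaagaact
Trim34a, chr7:104244457-104244486, minus strand: gcagagaaaaGAAACTGAAActccaaacca
Trim21, chr7:102565450-102565479, minus strand: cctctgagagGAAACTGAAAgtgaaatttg
The stretches of Trim30a and Trim30d are identical. Those of Trim5 and Trim12a are identical too, yet the FPKM of Trim12a was 24.0 times that of Trim5 in PTBP1_KO and 17.0 times in WT. Counted from the RefSeq gene start, the motif lies at bases -49 to -40 in Trim5 and 10 to 19 in Trim12a. This contrast depends on the annotation. By the GENCODE positions used for the genes below, Trim12a and Trim5, both on the minus strand, start at 104315466 and 104288094. Both motifs then lie before the gene start. Trim5 also matches Trim12c over 66.8% of its length at 95% identity, so its reads can be split among copies. All 9 members with the motif were tested, 8 of them had the higher FPKM in PTBP1_KO, and Trim2 had the lower; of all tested genes with the motif 52.3% were higher. A match of letters is a description and not a binding site.

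Levels of the TRIM genes ran from 0 to above those of 98.5% of tested genes. By the higher of both group values, 21 members had 10 FPKM or more, 16 had 1 to 10 FPKM and 13 had 0.1 to 1 FPKM, while 18 stayed under 0.1 FPKM in both groups and were not tested. The 10 members of highest mean held 81.3% of the summed FPKM of all TRIM genes in PTBP1_KO and 81.7% in WT, and the sums were 1568 FPKM in PTBP1_KO and 1562 FPKM in WT. Differences between neighbours in the order of the levels cannot be set against a spread between libraries, which the table does not give.

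**Figure D2:**
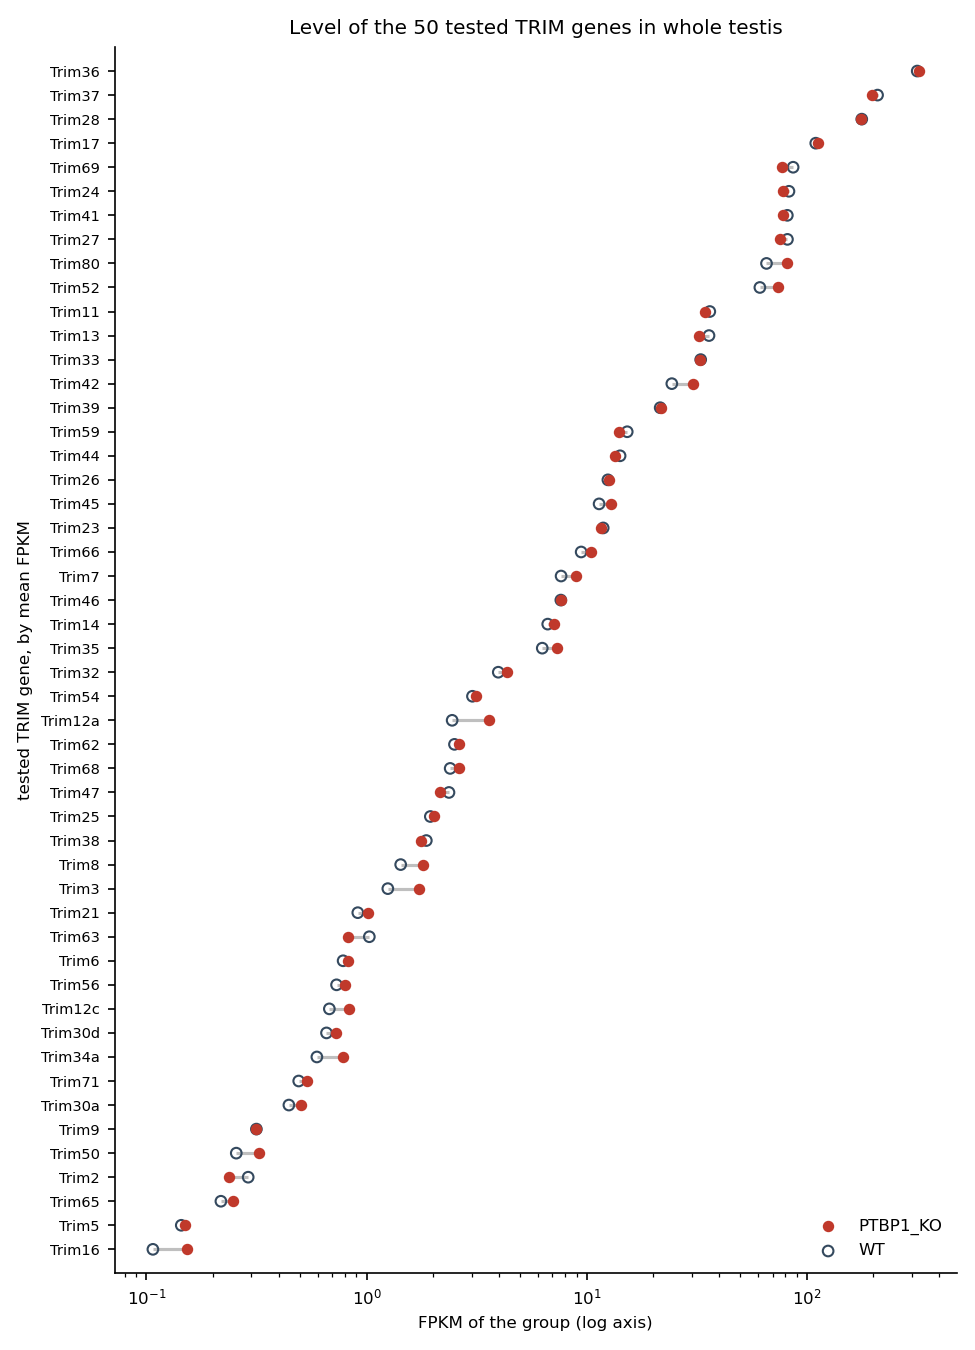
FPKM (log axis) of the 50 tested TRIM genes, ordered by mean, in PTBP1_KO (filled red) and WT (open dark points), with a line joining both groups. Levels span Trim16, at 0.153 FPKM in PTBP1_KO and 0.107 FPKM in WT, to Trim36, at 323 FPKM in PTBP1_KO and 318 FPKM in WT, and the points of a gene mostly touch.

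Of the 9 members listed as known from germ cells, 8 were tested, with 5 higher and 3 lower in PTBP1_KO and a median log2 fold change of 0.03. Their levels ran from Trim36, the highest of all members, to Trim75, listed at 0 in PTBP1_KO and at 0.00431 FPKM in WT. Trim36 (ENSMUSG00000033949.12), also called Haprin and linked to the acrosome of mouse sperm, stood at 323 FPKM in PTBP1_KO and 318 FPKM in WT (log2 fold change 0.02, q = 0.999 in the authors' deposited table), above 98.5% of all tested genes. Trim37 (chromosome 11, 87127077 to 87220683, mm10), not in that list but next in level, is a ligase with a MATH domain that restrains centriole duplication and was at 198 FPKM in PTBP1_KO and 210 FPKM in WT (log2 fold change -0.08, q = 0.999 in the authors' deposited table). Trim17, first described as a testis RING finger protein, was at 113 FPKM in PTBP1_KO and 110 FPKM in WT (log2 fold change 0.04, q = 0.999 in the authors' deposited table). Its exons overlap the histone gene Hist3h2a on the same strand, which had 3.43 FPKM in PTBP1_KO and 3.54 FPKM in WT. All 3 of these abundant genes had log2 fold changes within 0.08 of 0. Trim69 (chromosome 2, 122160700 to 122179027), a gene known from spermatids, had the lowest fold change of the 10 most abundant members, at 77.1 FPKM in PTBP1_KO and 86.8 FPKM in WT (log2 fold change -0.17, p = 0.15, q = 0.802 in the authors' deposited table). Trim27, a transcriptional cofactor abundant in spermatogenic cells, stood at 75.5 FPKM in PTBP1_KO and 81.8 FPKM in WT (log2 fold change -0.12, q = 0.955 in the authors' deposited table). Spermatocyte markers lay on the same side, with 1 of 6 higher in PTBP1_KO and a summed level of 725.2 FPKM in PTBP1_KO and 797.5 FPKM in WT, as did round spermatid markers, with 1 of 6 higher and sums of 1545 FPKM in PTBP1_KO and 1657 FPKM in WT; their part in these values was not tested.

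Trim42 and Trim80 had the smallest p of all members. Trim42 (ENSMUSG00000032451.6, chromosome 9, 97349562 to 97369958), a member with COS and FN3 domains, stood at 30.5 FPKM in PTBP1_KO and 24.4 FPKM in WT, a log2 fold change of 0.32 with p = 0.0037 and q = 0.148 in the authors' deposited table. Trim80 (ENSMUSG00000070332.4, chromosome 11, 115440545 to 115448270) stood at 81.1 FPKM in PTBP1_KO and 65.7 FPKM in WT, a log2 fold change of 0.30 with p = 0.0039 and q = 0.152 in the authors' deposited table. Each has 1 annotated transcript, so its fragments could be estimated. Trim42 rested on about 13675 fragments in PTBP1_KO and 12171 in WT, and Trim80 on about 27586 in PTBP1_KO and 24878 in WT. Counting alone gives standard errors of 0.018 and 0.013 on the log2 scale, far under both fold changes, while the spread between libraries is not known. Trim52 (chromosome 14, 106106198 to 106135859) had a fold change of nearly this size, at 74.3 FPKM in PTBP1_KO and 61.3 FPKM in WT (log2 fold change 0.28, p = 0.0573, q = 0.581 in the authors' deposited table). Trim42, Trim80 and Trim52 were the only members of 10 FPKM or more in a group with a log2 fold change over 0.25. Among markers of elongating spermatids, 5 of 6 had the higher FPKM in PTBP1_KO, with a summed level of 49133 FPKM in PTBP1_KO and 46403 FPKM in WT. Prm1, a protamine, was at 16362 FPKM in PTBP1_KO and 13135 FPKM in WT (log2 fold change 0.32, q = 0.0551 in the authors' deposited table). Its difference alone was larger than that of the sums. Tnp1, the 1 marker lower in PTBP1_KO, was at 18244 FPKM against 19773 FPKM in WT. The part of these markers in the values of Trim42, Trim80 and Trim52 was not tested.

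The chromatin group, with a PHD finger and bromodomain, had log2 fold changes from -0.08 to 0.15, with 1 of 4 genes higher in PTBP1_KO. Trim28 (ENSMUSG00000005566.14, chromosome 7, 12999114 to 13031035), the co-repressor that KRAB zinc-finger proteins bring to retroelements, stood at 177 FPKM in PTBP1_KO and 178 FPKM in WT (log2 fold change -0.01, q = 0.999 in the authors' deposited table). Trim24, a reader of histone marks that also targets p53, had 78.4 FPKM in PTBP1_KO and 83.1 FPKM in WT. Trim33, which acts on SMAD signalling, had 32.8 FPKM in PTBP1_KO and 33.0 FPKM in WT. Trim66, the testis-enriched relative of these genes, was the member of this group with the higher FPKM in PTBP1_KO, at 10.5 FPKM against 9.45 FPKM in WT (log2 fold change 0.15, q = 0.871 in the authors' deposited table). Of the 16 genes of the TRIM28 co-repressor list, 0 passed q under 0.05 by Cuffdiff. An adjusted normal p under 0.05 was reached by 0, as was an unadjusted Cuffdiff p under 0.05. Over all tested genes these shares were 1.16%, 0.0862% and 8.98%. In that list 6 were higher and 10 lower in PTBP1_KO, and the median log2 fold change was -0.02. The chromatin remodeller Chd4 was its most abundant gene, at 141.9 FPKM in PTBP1_KO and 149.5 FPKM in WT. The zinc-finger gene Zfp809, which recruits TRIM28 to proviral DNA, had the smallest p, at 12 FPKM in PTBP1_KO and 10 FPKM in WT (log2 fold change 0.26, p = 0.0509, q = 0.56 in the authors' deposited table).

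The SPRY group was taken as every member without one of the rarer C-terminal parts and not listed as lacking a C-terminal domain or the RING. Of its 37 genes 25 were tested, and 19 had the higher and 6 the lower FPKM in PTBP1_KO, with a median log2 fold change of 0.07. Trim41, a ligase for protein kinase C, stood at 77.7 FPKM in PTBP1_KO and 81.7 FPKM in WT; its exons overlap Rack1 on the opposite strand, which had 49.7 FPKM in PTBP1_KO and 47.5 FPKM in WT. Trim11, which acts in protein quality control, had 34.4 FPKM in PTBP1_KO and 36.3 FPKM in WT, and Trim39, a regulator of the cell cycle and apoptosis, had 21.9 FPKM in PTBP1_KO and 21.6 FPKM in WT. Both members anchored in the endoplasmic reticulum membrane had the lower FPKM in PTBP1_KO. Trim13 stood at 32.3 FPKM in PTBP1_KO and 36.0 FPKM in WT (log2 fold change -0.15, q = 0.905 in the authors' deposited table), and a transcript of another gene, Gm9359, matches 75.6% of its length at 95% identity. Trim59 stood at 14.1 FPKM in PTBP1_KO and 15.3 FPKM in WT (log2 fold change -0.11, q = 0.999 in the authors' deposited table). Trim47 (2.15 FPKM in PTBP1_KO, 2.37 FPKM in WT) and Trim65 (0.248 FPKM in PTBP1_KO, 0.218 FPKM in WT) share exonic sequence on the same strand, so both values are uncertain.

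Another 12 tested members of other or SPRY classes had log2 fold changes between -0.08 and 0.34. Every member with an unadjusted Cuffdiff p under 0.05 is described elsewhere, so these 12 hold none by choice. Trim23, a ligase that carries a GTPase-like ARF domain, stood at 11.6 FPKM in PTBP1_KO and 11.9 FPKM in WT, and Trim45, with a filamin domain, at 12.9 FPKM in PTBP1_KO and 11.4 FPKM in WT (log2 fold change 0.18, q = 0.834 in the authors' deposited table). Trim44, which lacks the RING, stood at 13.4 FPKM in PTBP1_KO and 14.2 FPKM in WT. Trim46 and Trim9 are known for ordering microtubules or branching in neurons. Trim46 stood at 7.69 FPKM in PTBP1_KO and 7.64 FPKM in WT, and Trim9 at 0.314 FPKM in PTBP1_KO and 0.316 FPKM in WT. Trim7, named for binding glycogenin, had 8.97 FPKM in PTBP1_KO and 7.66 FPKM in WT, and Trim35 had 7.33 FPKM in PTBP1_KO and 6.29 FPKM in WT. Trim26 stood at 12.7 FPKM in PTBP1_KO and 12.5 FPKM in WT, and the gastric gene Trim50 at 0.325 FPKM in PTBP1_KO and 0.256 FPKM in WT. Trim16, which acts with galectins on damaged membranes, had a larger fold change at the edge of detection, at 0.153 FPKM in PTBP1_KO and 0.107 FPKM in WT (log2 fold change 0.52, p = 0.596, q = 0.999 in the authors' deposited table). Trim62, Trim68 and Trim38 lay between 1.77 and 2.64 FPKM in PTBP1_KO and between 1.87 and 2.51 FPKM in WT.

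The interferon-linked members were mostly low. Of 13 such genes 10 were tested, and all 10 had the higher FPKM in PTBP1_KO. Among them 0 were called, and the median log2 fold change was 0.15. Of all tested genes 1.16% were called and 50.9% were higher. By level, 56% of all tested genes were higher under 1 FPKM in both groups and 57.7% from 1 to 10 FPKM. The list was written with earlier results of these data known, and the count depends on which members it holds. Trim26 and Trim2 hold the motif letters but are not in the list, and had log2 fold changes of 0.02 and -0.29. Trim12a (ENSMUSG00000066258.13, chromosome 7, 104299894 to 104315466), a mouse relative of the retroviral restriction factor TRIM5, had the largest fold change of all tested members, at 3.59 FPKM in PTBP1_KO and 2.45 FPKM in WT (log2 fold change 0.55, p = 0.0396, q = 0.501 in the authors' deposited table). Trim34a stood at 0.786 FPKM in PTBP1_KO and 0.595 FPKM in WT (log2 fold change 0.40, p = 0.0695, q = 0.631 in the authors' deposited table). Trim12c stood at 0.829 FPKM in PTBP1_KO and 0.678 FPKM in WT (log2 fold change 0.29, q = 0.835 in the authors' deposited table). The other tested genes of the list differed less. Trim21, an intracellular receptor for antibodies, was at 1.02 FPKM in PTBP1_KO and 0.913 FPKM in WT, and Trim25, which activates the RNA sensor RIG-I, at 2.02 FPKM in PTBP1_KO and 1.95 FPKM in WT. Trim56, a ligase in DNA sensing, was at 0.8 FPKM in PTBP1_KO and 0.731 FPKM in WT. Trim14, an adaptor without RING domain, was at 7.12 FPKM in PTBP1_KO and 6.66 FPKM in WT, and its exons overlap Nans on the opposite strand.

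Trim6, Trim34a, Trim5, Trim12a, Trim34b, Trim12c, Trim30b, Trim30c, Trim30a and Trim30d lie in a row on chromosome 7, from 104218793 to 104507849 (mm10). All 7 tested genes of this cluster had the higher FPKM in PTBP1_KO, with log2 fold changes from 0.05 to 0.55. The sum over the 10 was 7.559 FPKM in PTBP1_KO and 5.904 FPKM in WT. Of them, Trim5, Trim12a, Trim12c, Trim30a, Trim30d and Trim34a were also counted among the interferon-linked members and the members with the motif. The counts of higher genes in these sets are therefore not separate, and all tested genes of the cluster also count in the SPRY group. Trim5 was at 0.15 FPKM in PTBP1_KO and 0.144 FPKM in WT, Trim6 at 0.824 FPKM in PTBP1_KO and 0.783 FPKM in WT, and Trim30d at 0.729 FPKM in PTBP1_KO and 0.658 FPKM in WT. Trim30a, which dampens inflammatory signalling in mouse, was at 0.505 FPKM in PTBP1_KO and 0.444 FPKM in WT. The genes left untested were Trim34b (0.0946 FPKM in PTBP1_KO, 0.0862 FPKM in WT), Trim30b (0.0352 FPKM in PTBP1_KO, 0.051 FPKM in WT) and Trim30c (0.0128 FPKM in PTBP1_KO, 0.00872 FPKM in WT), the last resting on about 4 fragments in PTBP1_KO and 3 in WT. Reads of these relatives can be split among copies: at 95% identity Trim34b matches Trim34a over 100% of its length, Trim5 matches Trim12c over 66.8%, and Trim12c matches Trim12a over 25.9%. All 10 leukocyte markers also had the higher FPKM in PTBP1_KO, 2 of them past q under 0.05 in Cuffdiff's test, with a summed level of 61.73 FPKM in PTBP1_KO and 42.07 FPKM in WT and the common leukocyte antigen Ptprc at 0.431 FPKM in PTBP1_KO and 0.356 FPKM in WT; none of the 10 was at 0. Of the myoid and stromal markers 6 of 7 were higher, 2 of them called, with sums of 97.66 FPKM in PTBP1_KO and 78.53 FPKM in WT. Of the spermatogonial markers 6 of 7 were higher, 2 of them called, with sums of 86.1 FPKM in PTBP1_KO and 70.94 FPKM in WT, and the Sertoli markers given above were all higher. Leydig cell markers were higher in 2 of 6, with 1 called and a median log2 fold change of -0.14. Their sums of 1350 FPKM in PTBP1_KO and 1085 FPKM in WT were mostly Insl3, at 1049 FPKM in PTBP1_KO and 750 FPKM in WT. No marker of these lists was at 0, and their part in the values of the cluster and of the interferon-linked members was not tested.

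**Figure D3:**
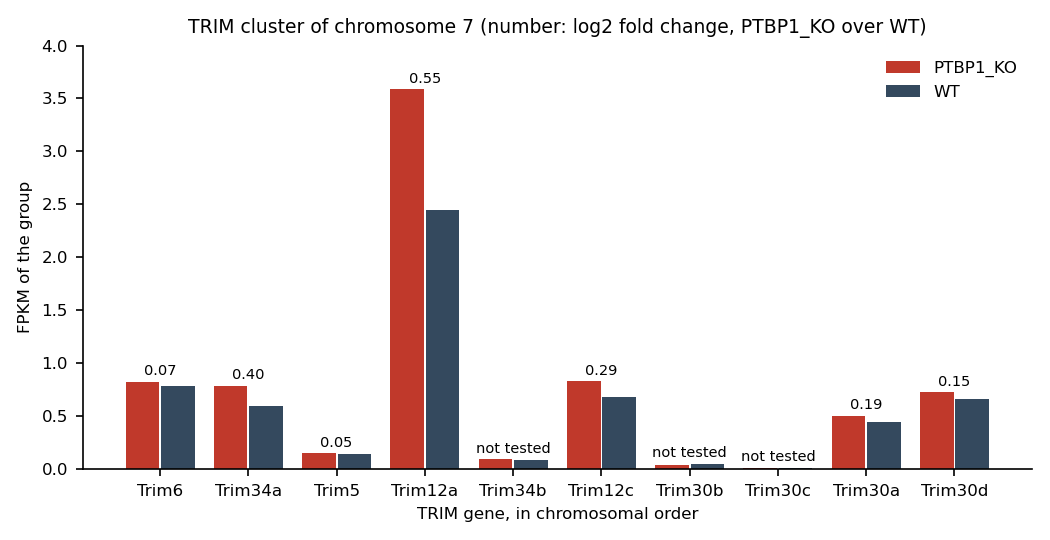
FPKM of the 10 TRIM genes of the chromosome 7 cluster in chromosomal order, with PTBP1_KO as red and WT as dark bars and the log2 fold change of PTBP1_KO over WT above each tested gene. Trim12a is the highest, at 3.59 FPKM in PTBP1_KO and 2.45 FPKM in WT, and in all 7 tested genes the PTBP1_KO bar is the taller.

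The signalling genes around these members gave 1 call. Oasl2, an interferon-induced gene of the OAS family, rose to 3.16 FPKM in PTBP1_KO, against 1.95 FPKM in WT. Its log2 fold change was 0.70, with q = 0.0359 in the authors' deposited table. It was the only gene past the threshold among 27 for antiviral sensing and interferon signalling, beside 1.16% of all tested genes. With a normal p from the test statistic 0 of the 27 passed, beside 0.0862% of all tested genes. In that list 21 were higher and 6 lower in PTBP1_KO, with a median log2 fold change of 0.10. For all tested genes 50.9% were higher, with a median of 0.01. The share higher was 56% for all tested genes under 1 FPKM in both groups, 57.7% from 1 to 10 FPKM and 39.6% above. The transcription factor Irf3 was its most abundant gene, at 36.8 FPKM in PTBP1_KO and 32.1 FPKM in WT. Among TRIM proteins that go by other symbols, 1 of 4 tested genes was higher. That was Pml, whose protein builds nuclear bodies and is itself interferon-induced, at 1.21 FPKM in PTBP1_KO and 0.818 FPKM in WT (log2 fold change 0.57, p = 0.0065, q = 0.208 in the authors' deposited table). Bspry, a protein with B-box and SPRY but no RING domain, was abundant at 198 FPKM in PTBP1_KO and 209 FPKM in WT.

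Of the members with NHL repeats, Trim3, a ligase known from neurons, had the largest fold change, at 1.74 FPKM in PTBP1_KO and 1.25 FPKM in WT (log2 fold change 0.48, p = 0.103, q = 0.711 in the authors' deposited table). Trim32, mutated in a form of muscular dystrophy, stood at 4.36 FPKM in PTBP1_KO and 3.97 FPKM in WT, and Trim2 at 0.238 FPKM in PTBP1_KO and 0.29 FPKM in WT. Trim71, the mammalian LIN-41 and a let-7 target needed in early germ cells, was low, at 0.539 FPKM in PTBP1_KO and 0.492 FPKM in WT (log2 fold change 0.13, q = 0.999 in the authors' deposited table). It rested on about 996 fragments in PTBP1_KO and 1010 in WT, with a counting error of 0.064 on the log2 scale. The TRIM71 and let-7 pathway list of 10 genes held 0 past q under 0.05 by Cuffdiff, beside 1.16% of all tested genes. It held 0 with an adjusted normal p, beside 0.0862%, and 0 at an unadjusted Cuffdiff p under 0.05, beside 8.98%. There, 5 were higher and 5 lower in PTBP1_KO, with Tut4, a terminal uridylyltransferase acting on let-7 precursors, at 22.4 FPKM in PTBP1_KO and 20.4 FPKM in WT, and Dis3l2, the nuclease that degrades those tailed precursors, at 14.7 FPKM in PTBP1_KO and 17.2 FPKM in WT (p = 0.0751 in the authors' deposited table).

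Trim8, a regulator of cytokine signalling, had 1.81 FPKM in PTBP1_KO and 1.43 FPKM in WT (log2 fold change 0.34, p = 0.0361, q = 0.478 in the authors' deposited table). Trim63, the muscle atrophy ligase MuRF1, had the lowest fold change of all tested members, at 0.826 FPKM in PTBP1_KO and 1.03 FPKM in WT (log2 fold change -0.32, p = 0.159, q = 0.820 in the authors' deposited table). Its muscle relative Trim54 was at 3.13 FPKM in PTBP1_KO and 3.03 FPKM in WT. The share of members with the higher FPKM in PTBP1_KO differed by level. Of those with under 1 FPKM in both groups 11 of 13 were higher in PTBP1_KO, of those with 1 to 10 FPKM 13 of 16, and of those from 10 FPKM up 9 of 21; for all tested genes in the same ranges the shares were 56%, 57.7% and 39.6%. These ranges were chosen after the values were seen.

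The 18 members that Cuffdiff did not test were all under 0.1 FPKM in both groups, among them Trim75, listed as a germ cell member. Trim15, Trim31 and Trim40, neighbours on chromosome 17, were listed at 0 in both groups. Trim43b, Trim43c and Trim75 were listed at 0 in PTBP1_KO and at 0.00443, 0.0029 and 0.00431 FPKM in WT, all under the level of 3 fragments for 1 kb. Trim60 and Trim61 share exons, and Trim60 was at 0.00208 FPKM in PTBP1_KO and 0.0168 FPKM in WT on about 1 fragment in PTBP1_KO and 9 in WT. Trim61 was at 0.00562 FPKM in PTBP1_KO and 0.0236 FPKM in WT, and Trim43a at 0.00568 FPKM in PTBP1_KO and 0.0297 FPKM in WT. Trim10, an erythroid gene, had about 18 fragments in PTBP1_KO and 9 in WT. The muscle genes Trim55 and Trim72 stayed under 0.1 FPKM in both groups, as did the brain gene Trim67, the epithelial gene Trim29 and the erythroid gene Trim58. These values have no p-value. Each of the 3 Trim43 genes and Trim34b has a near-identical copy, at 95% identity over 80% of its length.

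Lists of partners through which TRIM ligases act also gave no calls, beside 1.16% of all tested genes by q and 8.98% by unadjusted Cuffdiff p. At the share by q, lists this short hold few calls or none, so 0 says little of the partners. Of 12 ubiquitin-conjugating enzymes and cofactors known to work with RING ligases, 4 were higher and 8 lower in PTBP1_KO, and 0 passed q or unadjusted p under 0.05 by Cuffdiff or an adjusted normal p under 0.05. Ube2d3, an enzyme that many RING ligases use, was the most abundant at 861 FPKM in PTBP1_KO and 835 FPKM in WT, and Ube2k had the smallest p at 136.7 FPKM in PTBP1_KO and 119.4 FPKM in WT (log2 fold change 0.20, p = 0.0842, q = 0.673 in the authors' deposited table). Of 14 autophagy receptors and initiators, 6 were higher and 8 lower, and again 0 passed in any of these ways. Gabarapl1, which coats autophagosomes, stood at 537 FPKM in PTBP1_KO and 522 FPKM in WT, and the receptor Tax1bp1 at 138.8 FPKM in PTBP1_KO and 155.4 FPKM in WT (p = 0.157 in the authors' deposited table).

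**Figure D4:**
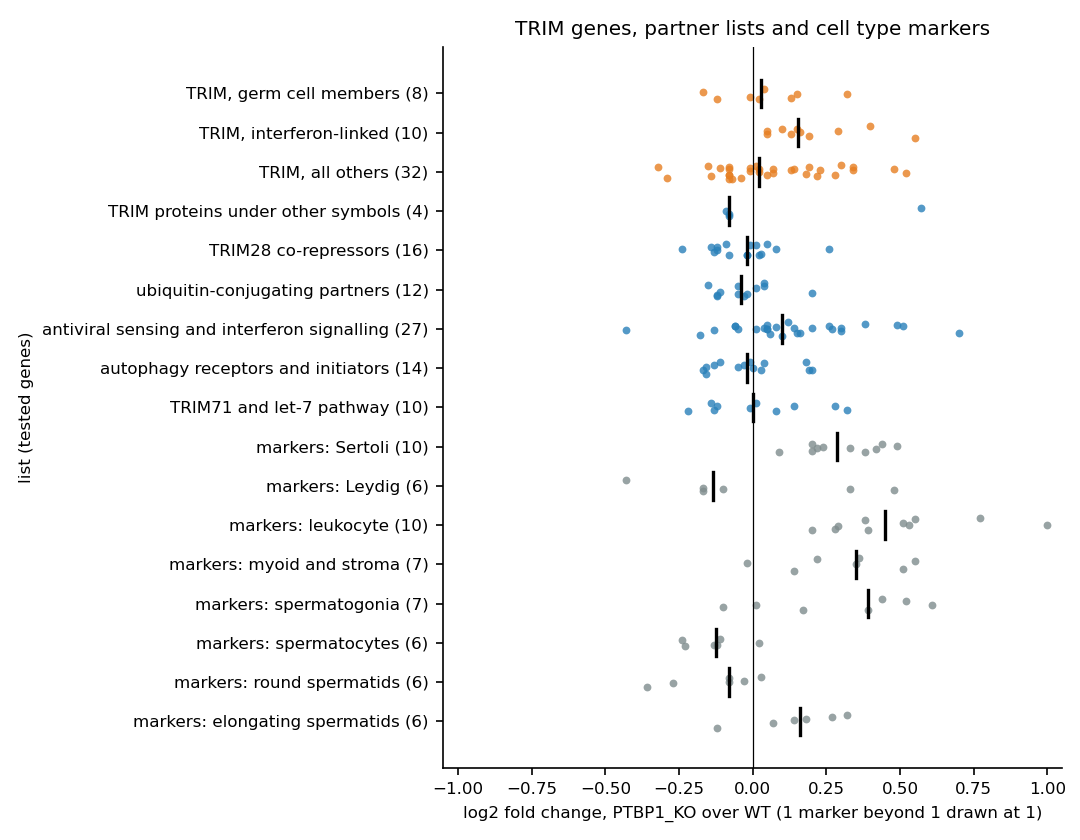
Log2 fold change of PTBP1_KO over WT for each tested gene of the TRIM groups (orange), partner lists (blue) and cell type markers (grey), with a black bar at each median and the number of tested genes in brackets. The 10 interferon-linked TRIM genes lie right of 0 with a median of 0.15, as do the 10 leukocyte markers with a median of 0.45; 1 marker beyond 1 is drawn at 1.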

How the data were processed

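Whole-testis polyadenylated RNA of 6 libraries, 3 PTBP1_KO and 3 WT by their titles, was used. Per the submitters' processing notes, mm10 and the tools STAR 2.6.1d, Trimmomatic 0.38, bcl2fastq 2.20, Cuffdiff and Cufflinks were used. Their roles and settings, strand handling included, are not stated in what was used here. The authors' deposited table holds, per the file headers, the FPKM of each group, the log2 fold change, a test statistic (a signed score), and p-values and q-values from Cuffdiff. No value per library was present, so no model could be fitted and no SD given.

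The main call was q under 0.05 among the 22048 genes with status OK. Normal p-values were computed from the statistic and Benjamini-Hochberg adjusted over those genes. List medians on log2(FPKM + 1), used for the alternatives, took genes with at least 0.1 FPKM in a group; this scale understates changes of low genes. Fragment steps were read from unspliced genes of 1 transcript, 1500 to 6000 bp long; all 272 PTBP1_KO and 250 WT values small enough to be 1 fragment lay within 1% of a step. Positions, overlaps and copies (BLAST 2.17.0, 95% identity over 80% of the length) used GENCODE M21, which matched 98.6% of identifiers. Functions run over all genes were tested on simulated data.

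Named members were all with p under 0.05, the 10 highest, the 6 largest rises and 6 largest falls at 1 FPKM or more, 9 germ cell and 13 interferon-linked genes; others were named after their values were seen. Members and lists were chosen with earlier results of these data known.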

Additional observations from a re-analysis of the deposited data

How the results depend on the processing

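The 0 calls among TRIM genes stayed 0 with a normal p from the statistic and with adjustment over genes of at least 1 or 0.1 FPKM. The smallest adjusted Cuffdiff p of a member was 0.126 with adjustment over genes of at least 1 FPKM. The normal p called 0.0862% of all tested genes, against 1.16% as deposited, so it could hardly add calls. Leaving out the 38 members that overlap another gene keeps the same q and can only give 0, so it shows nothing of stability. Over the antiviral list the count was 0 with the normal p, against 1 as deposited. The median difference of log2(FPKM + 1) over TRIM genes was 0.03. It was 0.06 with a pseudocount of 0.1 or 0.01, 0.02 over members of at least 1 FPKM, 0.01 without a filter, 0.04 centred on all expressed genes, whose median shift was -0.005, and 0.04 without overlapping members. For TRIM proteins under other symbols it was -0.04, and -0.07 with a pseudocount of 0.1 and -0.05 from 1 FPKM. For the antiviral list it was 0.05, and 0.08 with a pseudocount of 0.1 and 0.14 from 1 FPKM. For the 29 named members that were tested, a normal p moved none past the threshold, but this stricter p could hardly have done so. The pseudocount and the centring cannot or can hardly turn a direction, so they show nothing of its stability. No paired analysis was possible because the table combines the libraries of each group, and for the same reason leaving out a library was not run. Values under about 0.015 FPKM rest on a few fragments.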
